A study of Homo sapiens with 4 samples.

Results

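The 41 genes described here build the kinetochore, mark the centromere beneath it or run the checkpoint that watches it. Each was found as a row of the deposited table whose symbol equals the gene's name, and all 41 of 41 were present among 56657 rows. All 41 also had enough counts to be tested, next to 16817 tested genes in all. RNA was sequenced from TE5 cells, an established esophageal squamous cell carcinoma line, carrying either hairpin RNA against NUP153 (shNUP153, n = 2 libraries) or a control hairpin (shControl, genotype label WT, n = 2). All cells were infected with lentivirus, selected with puromycin and kept for 7 more days. The labels name no separate infections or cultures for the replicates, so each p-value reflects the spread among these 4 libraries, which may be technical. For shNUP153 the label descriptions carry the suffixes g1 and g2, and whether these mark different hairpins is left unsaid. An effect of a hairpin on other transcripts and an effect of NUP153 loss cannot be told apart.

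The kinetochore is the protein assembly through which a chromosome holds spindle microtubules in mitosis. It is founded on nucleosomes with the histone variant CENP-A, on which the constitutive centromere-associated network (CCAN) sits. The CCAN in turn recruits the MIS12, NDC80 and KNL1 complexes of the microtubule-binding outer layer. Unattached kinetochores recruit BUB and MAD proteins, whose output inhibits the anaphase-promoting complex and delays chromosome separation. Most of these genes are transcribed in a cell cycle dependent way, in S phase or before mitosis. NUP153, a protein of the nuclear basket of the nuclear pore, and its partner TPR are known to bind the checkpoint protein MAD1.

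The libraries held 22606593 to 27396268 counts. NUP153 itself measured 67.9 and 81.9 CPM (counts per 1000000 counts of a library, with TMM scaling) in the shNUP153 libraries, against 148.9 and 141.6 CPM in the shControl libraries, a fall of the target by 0.96 on the log2 scale (SE 0.06, edgeR's adjusted p = 1.051e-14). The 8 squamous epithelial markers summed to 2530 to 2540 CPM in shNUP153 and 2080 to 2120 CPM in shControl. Of these, KRT17 was higher in shNUP153 (log2 fold change 0.76), KRT5 (-0.68), KRT6A (-0.23) and SOX2 (-0.34) were lower, TP63 (-0.08), DSG3 (-0.09) and ITGB4 (-0.05) did not pass the test, and KRT14 was near 0 (0.39 CPM in both groups) and was not tested. The 4 fibroblast markers summed to 0.54 to 0.927 CPM in shNUP153 and 0.496 to 0.6 CPM in shControl, with DCN at 0. The 3 immune markers summed to 0.116 to 0.169 CPM in shNUP153 and 0.113 to 0.135 CPM in shControl. The 3 endothelial markers summed to 24 to 25.1 CPM in shNUP153 and 11.1 to 12.2 CPM in shControl, nearly all of it CDH5, with PECAM1 at 0.0789 CPM in shNUP153 and 0 in shControl.

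Of the 41 kinetochore genes, 24 were lower in shNUP153 cells and 0 were higher by edgeR's quasi-likelihood test at an adjusted p under 0.05 (58.5% lower). Among all tested genes 32.4% passed by the same rule, 17.4% lower and 15% higher. At an unadjusted p under 0.05, 27 members were lower and 2 higher. DESeq2 called 18 lower and 0 higher, and limma 24 and 0. The decreases were small, with a median log2 fold change of -0.21 over the members beside 0.01 over all tested genes, and no member reached a 2-fold fall. Without shNUP153 replicate 1 the count was 13, and without the other libraries it was 19 to 23. With total-count scaling 18 members were lower and 3 were higher, CENPQ, MIS12 and HJURP, and the share of all calls that were higher was 62.8% in place of 46.3%. That scaling ended the calls for CENPO (adjusted p = 0.172), NDC80 (0.143), SPC24 (0.0642), KNL1 (0.0596), CENPF (0.107) and ZWILCH (0.0985), and upper-quartile scaling those for CENPO (0.116), NDC80 (0.0846), CENPF (0.0614) and ZWILCH (0.0576). Among all tested genes 1769 were lower and 1303 higher without shNUP153 replicate 1, and 1900 were lower and 1442 higher without shNUP153 replicate 2, in place of 2927 and 2521.

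Well-measured genes were called more often in general. Among the 2881 tested genes whose mean level lay between the members' quartiles of 27.7 and 62.1 CPM, 24.4% were lower and 18.4% higher, with a median log2 fold change of -0.02. Both shNUP153 libraries lay below both shControl libraries for 31 of the 41 members, an order that 32.2% of all tested genes had. The summed level of all members was 2078 and 2163 CPM in shNUP153 libraries, against 2423 and 2385 CPM in shControl libraries. In RNA from a whole culture, fewer cells in the phase that uses these genes and less RNA per cell cannot be told apart.

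**Figure D1:**
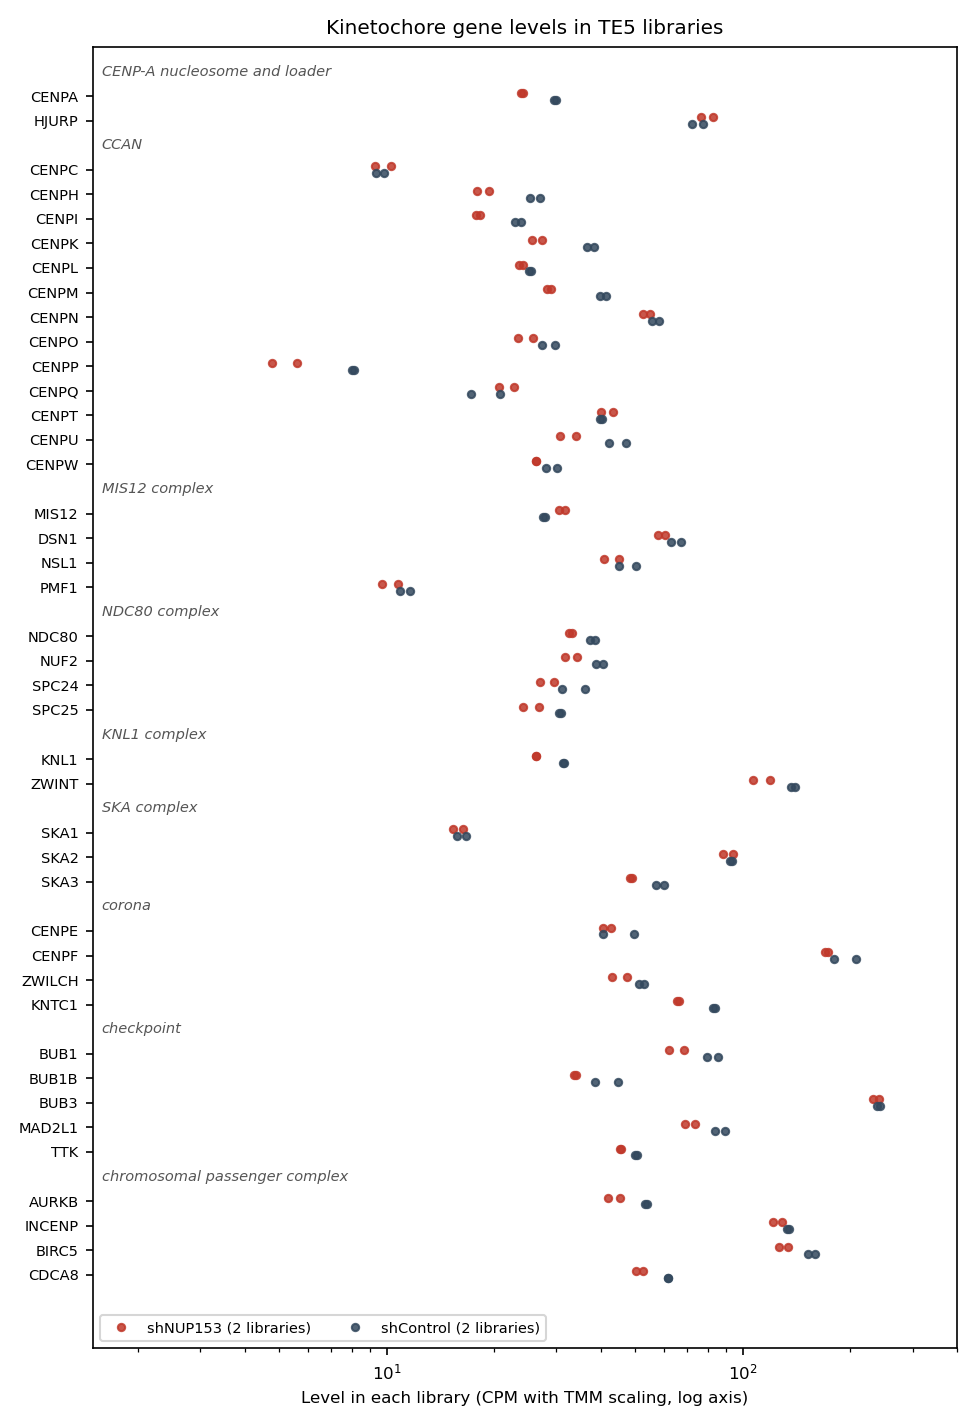
Level of each kinetochore gene in each library (horizontal log axis, CPM with TMM scaling), in blocks by role, with shNUP153 libraries in red above shControl libraries in dark blue. Levels run from about 5 CPM for CENPP to over 200 CPM for BUB3, and the pairs are apart for CENPK, CENPM, CENPH and CENPU.

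Promoters of 6 members are shown: CENPK, CENPU, CENPA and SPC25 fell, while CENPQ and HJURP did not pass the test. CENPP, the member with the largest fall (-0.63), also has a window, which is not shown. They were chosen after their values were seen. Each window runs from 250 bases before to 50 bases after the gene's start and comes from RefSeq (GRCh38.p14), which is not the hg19 build named for the files. Capitals mark 3 motifs searched on both strands: the cell cycle genes homology region TTTGAA, the CCAAT box, and the E2F octamers TTTCCCGC, TTTGGCGC, TTTCGCGC and TTTGCCGC. The sequences read 5′ to 3′ on the gene's strand.
CENPK (chr5:65563119-65563418, minus strand): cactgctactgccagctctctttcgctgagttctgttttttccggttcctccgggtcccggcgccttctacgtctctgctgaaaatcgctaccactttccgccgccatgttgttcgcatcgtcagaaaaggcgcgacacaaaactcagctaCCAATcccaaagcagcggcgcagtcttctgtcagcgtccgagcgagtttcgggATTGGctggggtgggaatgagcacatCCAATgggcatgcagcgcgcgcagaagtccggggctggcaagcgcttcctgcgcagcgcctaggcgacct
CENPU (chr4:184734047-184734346, minus strand): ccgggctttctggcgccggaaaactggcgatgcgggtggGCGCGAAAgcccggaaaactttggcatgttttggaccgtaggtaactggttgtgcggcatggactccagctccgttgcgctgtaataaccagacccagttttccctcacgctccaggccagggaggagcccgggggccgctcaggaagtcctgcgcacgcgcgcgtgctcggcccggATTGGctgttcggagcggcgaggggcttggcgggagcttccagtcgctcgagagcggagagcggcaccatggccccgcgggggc
CENPA (chr2:26785806-26786105, plus strand): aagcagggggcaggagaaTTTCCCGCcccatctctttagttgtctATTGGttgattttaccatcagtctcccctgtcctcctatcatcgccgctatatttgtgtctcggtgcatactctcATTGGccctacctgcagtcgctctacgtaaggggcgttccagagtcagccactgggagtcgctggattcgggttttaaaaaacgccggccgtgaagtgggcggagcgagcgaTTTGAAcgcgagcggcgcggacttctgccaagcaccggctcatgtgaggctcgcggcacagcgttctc
SPC25 (chr2:168890381-168890680, minus strand): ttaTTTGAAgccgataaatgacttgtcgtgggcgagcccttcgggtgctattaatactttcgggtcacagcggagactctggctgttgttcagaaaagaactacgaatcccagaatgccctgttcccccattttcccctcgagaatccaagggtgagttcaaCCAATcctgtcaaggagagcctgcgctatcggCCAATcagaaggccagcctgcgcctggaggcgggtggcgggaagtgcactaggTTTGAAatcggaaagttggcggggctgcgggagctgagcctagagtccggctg
CENPQ (chr6:49463120-49463419, plus strand): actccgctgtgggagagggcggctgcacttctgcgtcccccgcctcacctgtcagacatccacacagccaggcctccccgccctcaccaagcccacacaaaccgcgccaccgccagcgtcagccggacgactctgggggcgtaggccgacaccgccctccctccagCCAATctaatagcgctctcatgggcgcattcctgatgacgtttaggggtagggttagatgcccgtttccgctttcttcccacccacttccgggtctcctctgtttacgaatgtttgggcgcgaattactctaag
HJURP (chr2:233854486-233854785, minus strand): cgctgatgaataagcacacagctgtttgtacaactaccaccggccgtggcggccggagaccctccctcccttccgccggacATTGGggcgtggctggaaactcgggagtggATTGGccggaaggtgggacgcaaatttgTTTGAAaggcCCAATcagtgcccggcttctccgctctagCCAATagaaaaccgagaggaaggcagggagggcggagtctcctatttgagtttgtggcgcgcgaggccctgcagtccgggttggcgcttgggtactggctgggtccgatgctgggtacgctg

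The CENPK window held CCAAT boxes beginning 99, 46 and 20 bases before the start and no TTTGAA. The CENPU window held a CCAAT box and an E2F octamer, both on the opposite strand. In CENPA, TTTGAA began 18 bases before the start, with CCAAT boxes and an E2F octamer further upstream. SPC25 had TTTGAA at both ends of its upstream part and CCAAT boxes between them. CENPQ held 1 CCAAT box only, and HJURP held TTTGAA and 4 CCAAT boxes.

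Of the pair of genes for the foundation of the kinetochore, CENPA passed the test and HJURP did not. CENPA, which encodes the centromeric histone, had 23.8 and 24.2 CPM in shNUP153 libraries, against 29.9 and 29.5 CPM in shControl libraries. Its log2 fold change was -0.31 (SE 0.08, adjusted p = 0.0028), and the adjusted p was 0.0574 without shNUP153 replicate 1. HJURP, the chaperone that loads CENP-A, had 76.2 and 82.7 CPM in shNUP153 libraries and 77.4 and 72.2 CPM in shControl libraries. The HJURP groups overlapped, at 0.09 (95% interval -0.03 to 0.21, adjusted p = 0.272), and with total-count scaling it passed upward (0.15, adjusted p = 0.0434).

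Within the CCAN, 7 of 13 genes fell. All 4 genes of the CENP-H/I/K/M subcomplex, which links CENP-C to the rest of the network, fell, by 1.30- to 1.42-fold. CENPK had 25.6 and 27.4 CPM in shNUP153 libraries, against 36.6 and 38.3 CPM in shControl libraries (-0.50, SE 0.08, adjusted p = 2.361e-06). CENPM had 28.9 and 28.3 CPM, against 41.4 and 39.8 CPM in shControl (-0.50, SE 0.07, adjusted p = 1.319e-06). For both genes every shNUP153 library lay well below every shControl library. CENPH had 18.0 and 19.4 CPM in shNUP153 and 26.9 and 25.2 CPM in shControl (-0.48, SE 0.09, adjusted p = 4.152e-05). CENPI had 17.8 and 18.3 CPM in shNUP153 and 23.0 and 23.9 CPM in shControl (-0.38, SE 0.09, adjusted p = 0.000945). The call for each of these genes held under all 13 alternatives in scaling, filter, test and libraries.

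The CENP-O/P/Q/U subcomplex, which recruits the kinase PLK1 through CENP-U, had 3 of 4 genes past the test. CENPP showed the largest fold of all members, with 5.59 and 4.76 CPM in shNUP153 libraries, against 8.11 and 7.99 CPM in shControl libraries (-0.63, SE 0.14, adjusted p = 0.000737). CENPP was the lowest member (113 to 213 counts), and 38% of its annotated exon length overlaps IPPK on the opposite strand. IPPK rose (13.8 CPM in shNUP153, 10.8 CPM in shControl, log2 fold change 0.36, a call lost without shNUP153 replicate 1 or shControl replicate 2, with adjusted p of 0.193 and 0.164), and whether counting used strand is not given, so reads of the pair cannot be told apart. CENPU had 30.7 and 34.0 CPM in shNUP153, against 42.2 and 46.9 CPM in shControl (-0.47, SE 0.07, adjusted p = 6.471e-06). Of the CENPU exon length, 11.7% overlaps PRIMPOL on the opposite strand (log2 fold change -0.24). CENPO was close to the threshold, with 23.4 and 25.8 CPM in shNUP153 and 29.8 and 27.4 CPM in shControl (-0.21, adjusted p = 0.0455). Its call was lost without shNUP153 replicate 1 (adjusted p = 0.400), shNUP153 replicate 2 (0.0718) or shControl replicate 1 (0.204), and with DESeq2 (0.162). CENPO also shares 27% of its exon length with ADCY3 on the opposite strand, which fell by 0.30. CENPQ had 22.9 and 20.7 CPM in shNUP153 libraries, against 20.9 and 17.3 CPM in shControl libraries (0.20, 95% interval 0.01 to 0.39, adjusted p = 0.108). The CENPQ libraries overlapped between groups, and it passed upward without shControl replicate 1 (0.33, adjusted p = 0.00738), with total-count scaling (0.26, 0.0265) and with upper-quartile scaling (0.24, 0.0459).

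The other CCAN genes did not pass the test. CENPC, which binds the CENP-A nucleosome directly and bridges to the MIS12 complex, had 9.25 and 10.3 CPM in shNUP153 libraries, against 9.33 and 9.86 CPM in shControl libraries (0.02, 95% interval -0.22 to 0.27). CENPN, a reader of CENP-A, had 52.4 and 55.0 CPM in shNUP153 and 58.3 and 55.7 CPM in shControl (-0.09, interval -0.21 to 0.04). Its partner CENPL had 23.5 and 24.1 CPM in shNUP153 and 25.4 and 25.1 CPM in shControl (-0.08, interval -0.25 to 0.08). The intervals of these genes leave room for a fall of the size seen in some called members. CENPT and CENPW form a histone-fold pair that recruits NDC80. CENPT had 39.9 and 43.2 CPM in shNUP153 libraries and 39.8 and 40.3 CPM in shControl libraries (0.05, interval -0.09 to 0.20). CENPW had 26.4 and 26.3 CPM in shNUP153 and 28.0 and 30.0 CPM in shControl (-0.14, interval -0.30 to 0.02, adjusted p = 0.179).

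**Figure D2:**
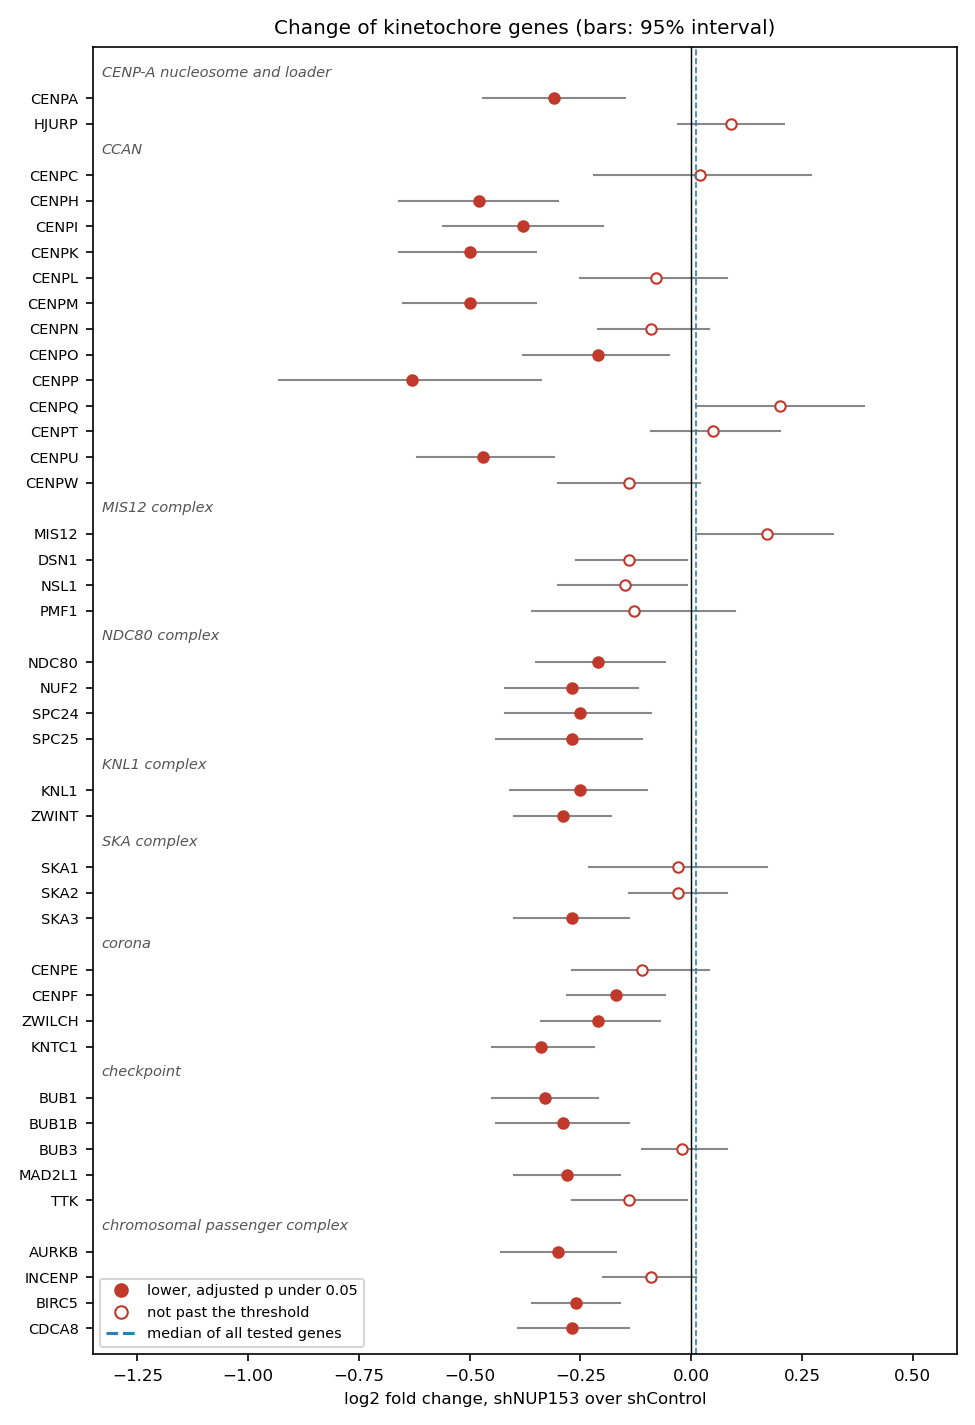
Log2 fold change of each kinetochore gene, shNUP153 over shControl, with its 95% interval from edgeR's quasi-likelihood fit, in blocks by role. Filled points passed the test after adjustment over all genes, and open points did not, even where their unadjusted interval stops short of 0, as for CENPQ and MIS12. The dashed line is the median of all tested genes, 0.01.

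In the outer, microtubule-binding layer, all 4 genes of the NDC80 complex, the main microtubule coupler, fell by similar amounts. NDC80 had 33.2 and 32.6 CPM in shNUP153 libraries and 37.3 and 38.6 CPM in shControl libraries (-0.21, adjusted p = 0.0269). NUF2 (-0.27), SPC25 (-0.27) and SPC24 (-0.25) had adjusted p from 0.00446 to 0.0151, and in each of the 4 genes the groups did not overlap. Several calls were lost when a library was left out, a fit with 1 library in that group, though the estimates stayed negative. Without shNUP153 replicate 1 the estimates were -0.22 for NDC80, -0.22 for NUF2, -0.2 for SPC25 and -0.19 for SPC24. Without shNUP153 replicate 1 none of the 4 passed (adjusted p = 0.134 for NDC80, 0.144 for NUF2, 0.208 for SPC25 and 0.2587 for SPC24). NDC80 was also lost without shNUP153 replicate 2 (0.190) or shControl replicate 2 (0.0901), and SPC24 without shControl replicate 2 (0.2585). With DESeq2, NDC80 (0.1055), SPC24 (0.0834) and SPC25 (0.0506) missed the threshold.

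The KNL1 complex, the platform on which BUB1 and BUB3 dock, fell in both genes. ZWINT had 106.9 and 119.4 CPM in shNUP153 libraries, against 136.4 and 140.0 CPM in shControl libraries (-0.29, SE 0.05, adjusted p = 6.375e-05), and its call held under every alternative run. KNL1 had 26.3 CPM in each shNUP153 library, against 31.4 and 31.3 CPM in shControl libraries (-0.25, SE 0.08, adjusted p = 0.0104). The replicates of KNL1 nearly coincided within each group. Without shNUP153 replicate 1 (adjusted p = 0.0959) or replicate 2 (0.0934) the KNL1 call was lost, and DESeq2 gave 0.0573.

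The MIS12 complex, which joins the CCAN to KNL1 and NDC80, had no gene past the test in either direction (edgeR, DESeq2 and limma each called 0 lower and 0 higher). At an unadjusted p under 0.05, 2 of its genes were lower and 1 was higher. MIS12 had 30.5 and 31.7 CPM in shNUP153 libraries, against 27.5 and 27.9 CPM in shControl libraries (0.17, 95% interval 0.01 to 0.32, adjusted p = 0.0967). MIS12 was the only member whose shNUP153 libraries both lay above both shControl libraries, an order that 32.2% of all tested genes had. MIS12 passed upward with total-count scaling (0.23, adjusted p = 0.0195), upper-quartile scaling (0.21, 0.0333) and a 5 CPM filter (0.19, 0.0416). DSN1 had 60.4 and 57.9 CPM in shNUP153 and 62.9 and 67.1 CPM in shControl (-0.14, interval -0.26 to -0.01, adjusted p = 0.0857). NSL1 had 40.8 and 45.05 CPM in shNUP153 and 45.03 and 50.1 CPM in shControl (-0.15, adjusted p = 0.0972). DSN1 (adjusted p = 0.0224) and NSL1 (0.0095) passed without shControl replicate 1. PMF1 had 10.8 and 9.74 CPM in shNUP153 and 11.6 and 10.9 CPM in shControl (-0.13, interval -0.36 to 0.10), and 23.3% of its exon length is shared with the read-through gene PMF1-BGLAP.

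Of the SKA complex, which tracks microtubule ends with NDC80, 1 of 3 genes fell. SKA3 had 48.8 and 48.2 CPM in shNUP153 libraries, against 60.0 and 57.0 CPM in shControl libraries (-0.27, SE 0.06, adjusted p = 0.00102). SKA1 had 16.4 and 15.3 CPM in shNUP153 and 16.7 and 15.8 CPM in shControl (-0.03, interval -0.23 to 0.17). SKA2 had 87.9 and 93.7 CPM in shNUP153 and 93.2 and 92.1 CPM in shControl (-0.03, interval -0.14 to 0.08). The interval of SKA2 excludes a fall as large as the estimate for SKA3, though the difference between the genes was not tested.

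In the fibrous corona, the outermost layer that forms before attachment, 3 of 4 genes fell. KNTC1 encodes ROD, the largest subunit of the complex that brings dynein and MAD1 to kinetochores. It had 65.6 and 66.2 CPM in shNUP153 libraries, against 82.8 and 83.8 CPM in shControl libraries (-0.34, SE 0.06, adjusted p = 1.309e-05). ZWILCH, of the same complex, fell by 0.21 on the log2 scale (adjusted p = 0.0156, 0.3045 without shNUP153 replicate 1, and 0.0725 with DESeq2). ZWILCH shares 158 bp of exon with RPL4, an abundant ribosomal protein gene on the opposite strand. RPL4 had 1364 CPM in shNUP153 and 1506 CPM in shControl (log2 fold change -0.14). CENPF, a large corona protein, fell by 0.17 (170 and 174 CPM in shNUP153, 208 and 180 CPM in shControl, adjusted p = 0.0121). That call was lost without shNUP153 replicate 1 (0.173), shNUP153 replicate 2 (0.0954) or shControl replicate 1 (0.313). CENPE, a plus-end-directed kinesin, had 40.5 and 42.6 CPM in shNUP153 libraries, against 49.6 and 40.6 CPM in shControl libraries (-0.11, interval -0.27 to 0.04, adjusted p = 0.266). CENPE had the widest gap between shControl libraries of any member, 0.29 on the log2 scale, and without shControl replicate 2 it passed (-0.26, adjusted p = 0.00351).

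Among the spindle checkpoint genes, 3 of 5 fell. BUB1, a kinase that docks on KNL1, had 62.1 and 68.6 CPM in shNUP153 libraries, against 85.2 and 79.2 CPM in shControl libraries (-0.33, SE 0.06, adjusted p = 4.985e-05). MAD2L1, which encodes MAD2, the protein whose closed form captures CDC20, had 73.5 and 69.0 CPM in shNUP153 and 89.2 and 83.9 CPM in shControl (-0.28, SE 0.06, adjusted p = 0.000261). Both calls held under every alternative run. BUB1B, which encodes BUBR1 of the mitotic checkpoint complex, had 33.7 and 34.05 CPM in shNUP153 and 44.5 and 38.6 CPM in shControl (-0.29, SE 0.08, adjusted p = 0.00262). The read-through gene BUB1B-PAK6, on the same strand, shares 10.2% of the BUB1B exon length. BUB1B was lost without shNUP153 replicate 1 (adjusted p = 0.0619) or shControl replicate 1 (0.0625). BUB3, the most abundant member, had 232.4 and 242.1 CPM in shNUP153 libraries, against 242.6 and 238.2 CPM in shControl libraries (-0.02, interval -0.11 to 0.08). TTK, the MPS1 kinase that starts checkpoint signalling, had 45.3 and 45.6 CPM in shNUP153 and 50.4 and 49.9 CPM in shControl (-0.14, interval -0.27 to -0.01, adjusted p = 0.0969). The TTK groups were apart in CPM, and the difference missed the adjusted threshold.

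The chromosomal passenger complex corrects faulty attachments, and 3 of its 4 genes fell. AURKB, its kinase, had 41.8 and 45.2 CPM in shNUP153 libraries, against 53.1 and 54.0 CPM in shControl libraries (-0.30, SE 0.07, adjusted p = 0.000482, and 0.0605 without shNUP153 replicate 1). CDCA8, which encodes borealin, fell by 0.27 (52.4 and 50.1 CPM in shNUP153, 61.7 and 61.8 CPM in shControl, adjusted p = 0.000846, and 0.0538 without shNUP153 replicate 2). BIRC5, which encodes survivin, had 126.6 and 134.0 CPM in shNUP153 and 152.6 and 159.4 CPM in shControl (-0.26, SE 0.05, adjusted p = 0.000116), a call that held throughout. INCENP, the scaffold that binds and activates AURKB, had 121.9 and 129.2 CPM in shNUP153 and 133.3 and 134.6 CPM in shControl (-0.09, interval -0.20 to 0.01, adjusted p = 0.164).

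Levels per length varied widely among members. Per kilobase of exon annotated in GENCODE 29, ZWINT was highest, at 47.6 CPM per kb in shNUP153 and 58.1 CPM per kb in shControl, and CENPP lowest, at 0.528 CPM per kb in shNUP153 and 0.822 CPM per kb in shControl. The annotation that made the counts is not given, so these ratios depend on the exon set used. Across the 41 members, level and change were nearly unrelated (Pearson r = 0.13 between log2 mean CPM and log2 fold change, Spearman rho = 0.07), the points sharing the same libraries. The median absolute log2 difference between replicates over the members was 0.091 in shNUP153 and 0.063 in shControl. Replicate 1 was the higher of the pair for 12 of the 41 members in shNUP153 and for 21 in shControl. The authors' deposited table gives log2 ratios without library size correction, -0.61 for CENPP, -0.48 for CENPK and 0.23 for CENPQ.

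Promoter windows were matched for 33 of the 41 members. TTTGAA was found in 16 of 33 (48.5%), beside 10.5% of the 16089 windows of tested genes. CCAAT was found in 21 of 33 (63.6%), beside 34.3%, and both together in 10 (30.3%), beside 4.16%. An E2F octamer was in 3 (9.09%), beside 4.72%. Of members with TTTGAA, 11 of 16 fell (median log2 fold change -0.24), and of members without it 8 of 17 (median -0.15). The 4 members with a window and the largest falls, CENPP, CENPK, CENPU and CENPI, all lacked TTTGAA. Of these, CENPK and CENPU held CCAAT, CENPU also held an E2F octamer, and CENPP and CENPI held neither. For CCAAT the counts were 12 of 21 with it and 7 of 12 without, both with a median of -0.21. A match describes letters in the window and was not tested as a binding site.

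**Figure D3:**
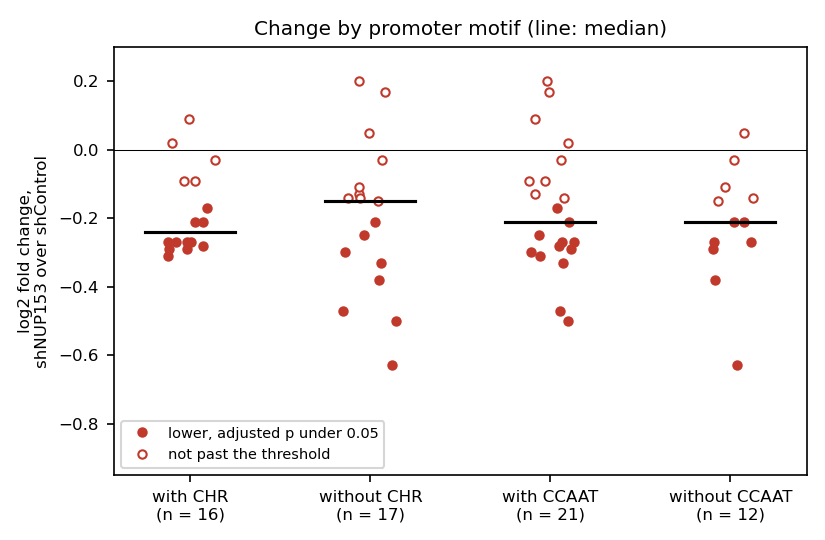
Log2 fold change (shNUP153 over shControl) of the 33 members with a RefSeq promoter window, split by whether the window holds TTTGAA (CHR) or CCAAT, on either strand. Points are spread sideways for visibility, and lines are medians: -0.24 with and -0.15 without CHR, -0.21 with and without CCAAT, and filled points passed the test.

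Of 24 further centromere and kinetochore genes, 12 were lower and 1, NDEL1, was higher, with 11 not passing the test (median -0.17), and without shNUP153 replicate 1 the count lower was 5. Beside these counts, 17.4% of all tested genes were lower and 15% higher. The CENP-A licensing factor gene MIS18A fell by 0.44 (16.4 and 17.5 CPM in shNUP153, 22.9 and 23.0 CPM in shControl, adjusted p = 0.000211). OIP5, of the same licensing complex, also passed (-0.42, adjusted p = 0.0137), but its call was lost without shNUP153 replicate 1 (0.1185), shNUP153 replicate 2 (0.0554) or shControl replicate 1 (0.129). CLASP1 (-0.36), CDK5RAP2 (-0.38), TRIP13 (-0.27), the ATPase that remodels MAD2, and ZW10 (-0.36), the partner of KNTC1 and ZWILCH, had the smallest p among those called. ITGB3BP, which encodes CENP-R of the same subcomplex as CENP-U, fell by 0.28 (adjusted p = 0.145 without shNUP153 replicate 1 and 0.0785 without replicate 2), and CENPX by 0.24 (0.105 without shNUP153 replicate 1). MAD1L1, which encodes MAD1, had 18.7 and 19.3 CPM in shNUP153 libraries and 17.9 and 17.1 CPM in shControl libraries (0.12, adjusted p = 0.347), and the MAD1-binding nucleoporin gene TPR was at 0.02 (adjusted p = 0.836).

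Downstream of the checkpoint, 13 of 21 genes of the anaphase-promoting complex and separase pathway were lower and 1, ANAPC13, was higher (median -0.17), with 3 lower when shNUP153 replicate 1 was left out and 7 when replicate 2 was. CDC27 (-0.31), ANAPC11 (-0.33), ANAPC15 (-0.50), whose product helps to release the checkpoint complex, and CDC20 (-0.24), the checkpoint's target, were among those that fell, CDC20 with an adjusted p of 0.0571 without shNUP153 replicate 1. A further list holds 16 nucleoporin and transport genes chosen for links to kinetochores or MAD1, NUP153 and RCC1 included. Of these 16, 10 were lower, among them NUP153, the target of the hairpin itself, and 1, AHCTF1, was higher (median -0.18). Beside the counts of this list and of the anaphase-promoting complex list, 17.4% of all tested genes were lower and 15% higher. NUP160 (-0.55), XPO1 (-0.30) and NUP37 (-0.44), of which NUP160 and NUP37 belong to a pore subcomplex that relocates to kinetochores in mitosis, had the smallest p after NUP153. The calls for NDEL1 (adjusted p = 0.275 and 0.114), ANAPC13 (0.154 and 0.252) and AHCTF1 (0.0899 and 0.174) were lost without shNUP153 replicate 1 or replicate 2. NDEL1 (0.14) and AHCTF1 (0.1798) were also lost without shControl replicate 2, and ANAPC13 (0.1225) without shControl replicate 1. With DESeq2 the called genes OIP5, ITGB3BP, NDEL1, ANAPC13, HDAC8 and IPPK missed the threshold, with adjusted p from 0.0878 for IPPK to 0.1454 for HDAC8. In edgeR with total-count scaling, ITGB3BP missed it as well (0.0695).

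Genes of other proliferation lists were also called, and their part in the kinetochore result was not tested. Each list's counts stand beside 17.4% lower and 15% higher among all tested genes. Among G2/M genes 12 of 20 were lower (median -0.22), with MYBL2 at -0.41, CCNA2 at -0.39, CCNB2 at -0.40 and TOP2A at -0.31, whereas AURKA (0.04) and NEK2 (-0.02) did not pass. Among central spindle and cytokinesis genes 10 of 13 were lower (median -0.27; 6 without shNUP153 replicate 1), with RACGAP1 at -0.90, ANLN at -0.41, PRC1 at -0.46 and KIF20A at -0.51. AURKC, a scarce paralogue of AURKB kept in that list, had 0.686 CPM in shNUP153 and 0.285 CPM in shControl (1.24, adjusted p = 0.0529), and passed upward with total-count scaling (0.0393), upper-quartile scaling (0.0442) and no abundance trend (0.0402). All 20 S phase genes were lower (median -0.57), RRM2 by 0.96, GINS1 by 1.11, CDC6 by 0.70 and MCM7 by 0.63. The S phase count was 17 with total-count scaling or DESeq2 and 18 with upper-quartile scaling. Among cohesin genes 6 of 14 were lower (42.9%, beside 17.4% of all tested genes), SMC1A (-0.52), MAU2 (-0.54) and ESCO2 (-0.51) with the smallest p. ESCO1 and HDAC8 were higher, 2 of 14, near the 15% of all tested genes that were higher. The cohesin median was -0.06. Without shNUP153 replicate 1 or replicate 2, 3 cohesin genes were lower and 0 higher, the calls for ESCO1 (0.0778 and 0.0874) and HDAC8 (0.0516 and 0.317) being lost. ESCO1 was also lost without shControl replicate 2 (0.0863) and HDAC8 without shControl replicate 1 (0.18). The kinetochore median of -0.21 lay near that of the G2/M genes and was smaller in size than that of the S phase genes, and no difference between lists was tested.

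**Figure D4:**
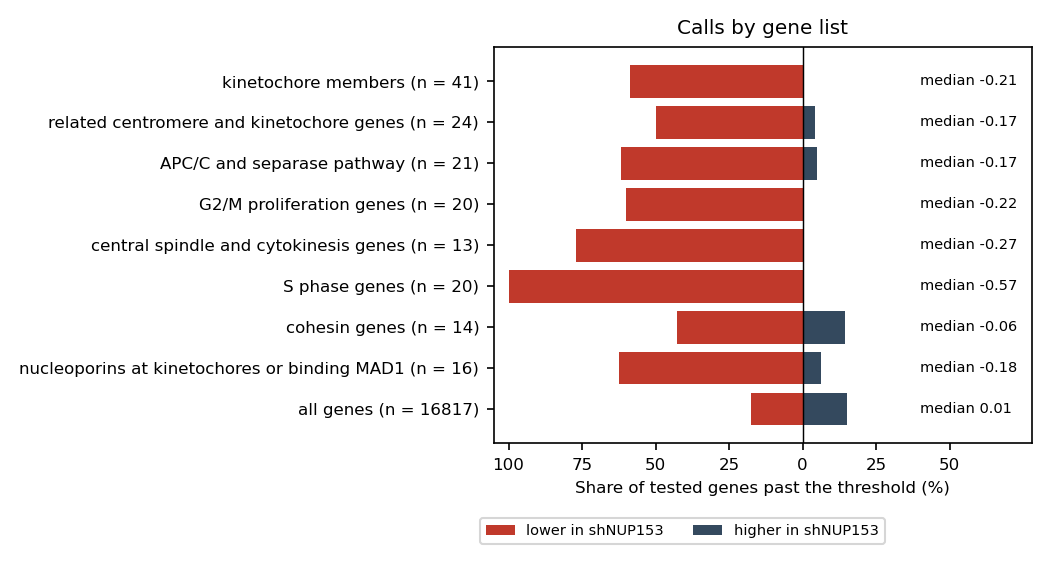
Share of tested genes in each list past the threshold, lower in shNUP153 to the left (red) and higher to the right (dark blue), with the median log2 fold change of each list at the right. Kinetochore members reach 58.5% lower, S phase genes 100% and all tested genes 17.4%.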

How the data were processed

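RNA was sequenced from 4 TE5 libraries, 2 shNUP153 and 2 shControl. The deposited table holds 1 count per gene and library. Its name speaks of FPKM, but its values are whole numbers with a different total per library, as the authors left them, and were treated as raw counts. Per the submitters' processing notes, the tools were kallisto, DESeq2, Bowtie2 and deepTools and the build was hg19, with no role stated. Not given in the sources used here are the counting tool, its annotation and its strand setting. The authors' deposited log2 ratio was recomputed to within 4.3e-09 from mean counts plus 0.005, with no library size correction, and entered no test.

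Genes were kept by filterByExpr (minimum count 10, minimum total 15). edgeR 4.0.16 in R 4.3.3 tested shNUP153 against shControl by its quasi-likelihood test with TMM scaling, two-sided, with Benjamini-Hochberg adjustment over 16817 genes and a threshold of 0.05. Standard errors are the log2 fold change over the root of F. limma 3.58.1 and DESeq2 1.42.0 were alternatives. Each gene has 2 residual degrees of freedom, and edgeR moderates its spread with that of other genes. The chi-square per gene between replicates was 3.09 in shNUP153 and 3.57 in shControl, above the sampling noise. The members and lists were chosen with earlier results of these data known. By rule, the 12 members with the largest called change and those not called are given by library, and of each other list up to 4 genes with the smallest p are named. TPR, MAD1L1, ITGB3BP, CENPX, AURKA, NEK2, MIS18A, OIP5, genes that rose and partners on the opposite strand were named after their values were seen.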

Additional observations from a re-analysis of the deposited data

How the results depend on the processing

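Of the 24 members called lower, 12 stayed lower and past the threshold under all 13 alternatives, and no called member changed sign. With RLE scaling (DESeq2's size factors in edgeR) the count lower was 24, and it was 13 to 23 when a library was left out, with 0 to 1 higher. Members called higher numbered 3 under total-count scaling, 2 under upper-quartile scaling and 1 once genes averaging under 5 CPM were dropped. The member median was -0.15 with total-count scaling, -0.17 with upper-quartile scaling and -0.24 to -0.2 without a library. Leaving out a library gave 1769 to 2874 lower and 1303 to 2327 higher among all genes, and DESeq2 gave 1442 higher.

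Among the other lists, total-count scaling gave 7 lower for the anaphase-promoting complex, 3 lower and 5 higher for cohesin, 2 higher for nucleoporins, 1 higher for G2/M and 1 higher for central spindle genes. Upper-quartile scaling gave 8 lower for the anaphase-promoting complex and 1 higher for the central spindle, as did a fit with no abundance trend for that last list. DESeq2 gave 8 lower and 0 higher for the anaphase-promoting complex, 0 higher for related kinetochore genes and 1 higher for cohesin. No filter on low counts gave 0, 0 and 1 higher for the same lists in that order. Leaving out a library gave 5 to 13 lower and 0 to 1 higher for related kinetochore genes, 3 to 12 lower and 0 to 1 higher for the anaphase-promoting complex, 6 to 10 lower for the central spindle, 3 to 6 lower and 0 to 3 higher for cohesin, and 0 to 2 higher for nucleoporins. The causes of these differences were not tested, and the fits without a library also had fewer libraries.

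Replicate numbers are shared between groups, but nothing says that they pair libraries, and the correlation of same-numbered deviations was -0.01. With the replicate block the same number of members, 24, was lower, with 2935 genes lower and 2530 higher in all, and it changed no member's call. Upper-quartile scaling made 57.6% of all calls higher, beside 46.3% with TMM, and moved the median of all genes by under 0.1. CENPP rests on the fewest counts, 113 to 213.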
